A study of Mus musculus with 6 samples.

Results

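The miR-17-92 and miR-106b-25 clusters are 2 related groups of microRNAs (miRNAs, short RNAs that guide silencing of messenger RNAs), each cut from 1 shared primary transcript and named for its first and last hairpin. Their 10 members measured here were chosen by name, as the spots on the array that carry the names of 7 miR-17-92 miRNAs (mmu-miR-17-5p, mmu-miR-17-3p, mmu-miR-18a-5p, mmu-miR-19a-3p, mmu-miR-19b-3p, mmu-miR-20a-5p and mmu-miR-92a-3p) and 3 miR-106b-25 miRNAs (mmu-miR-106b-5p, mmu-miR-93-5p and mmu-miR-25-3p). The prefix mmu, for mouse, is left out from here on. They are 10 of the 1247 mouse miRNAs on the array. The rule that picks them uses names and no measured value, although the clusters were chosen for description with earlier results of these data known. All were well above background on all 6 arrays, so all 10 are among the 299 miRNAs tested.

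The arrays profiled RNA from 3T3-L1 cells, a line of mouse embryonic fibroblasts that becomes fat-like in culture, collected on day 8 of differentiation. All cells, controls included, were induced with isobutyl-methylxanthine, dexamethasone, insulin and rosiglitazone in medium with fetal bovine serum, and then kept in serum and insulin. The 4 control samples had no further treatment, and the 2 IL-6 samples had interleukin-6, an inflammatory cytokine that acts through the kinase JAK and the transcription factor STAT3, at 1 ng/ml from induction onwards with daily renewal. The question of the study was which miRNAs differ when IL-6 is present during differentiation. Whether the arrays of 1 group hold RNA of different culture dishes is not in the labels. The p-values below thus set a difference against the scatter between these 6 arrays, and that scatter may be technical. Bulk RNA cannot tell fewer cells of a kind from less of a miRNA per cell.

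As background, miR-17-92 is known as an oncogenic cluster that is switched on by MYC and E2F factors in dividing cells. Its members repress brakes on growth and inducers of cell death such as Cdkn1a and Bcl2l11. In 3T3-L1 cells the cluster has been described as promoting the early, proliferative step of adipogenesis by repressing Rbl2, a relative of the retinoblastoma protein. The miR-106b-25 cluster is a paralog that is carried inside Mcm7, a gene of the DNA replication helicase, and shares most of its target genes with miR-17-92.

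A miRNA finds its targets mainly through bases 2 to 8 from its 5′ end, the seed, and the 10 members carry 5 seeds. The mature sequences are shown because the seeds define the functional groups by which the values are given below. They are RefSeq entries of GRCm38.p6, found for all 10 members, in lower case with the seed in capitals. The miR-17 seed group, AAAGUGC, has 4 members.
miR-17-5p: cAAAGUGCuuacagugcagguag
miR-20a-5p: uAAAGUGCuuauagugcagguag
miR-106b-5p: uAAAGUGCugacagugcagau
miR-93-5p: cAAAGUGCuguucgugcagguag
The miR-19 seed group, GUGCAAA, has 2 members, and so has the miR-25 and miR-92 seed group, AUUGCAC.
miR-19a-3p: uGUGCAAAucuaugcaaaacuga
miR-19b-3p: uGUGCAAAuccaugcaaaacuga
miR-92a-3p: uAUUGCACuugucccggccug
miR-25-3p: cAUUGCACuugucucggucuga
miR-18a-5p and miR-17-3p, the arm opposite miR-17-5p in the same hairpin, each have a seed that no other member has.
miR-18a-5p: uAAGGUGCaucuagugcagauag
miR-17-3p: aCUGCAGUgagggcacuuguag

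The 6 hairpins of miR-17-92 lie within 836 bases on the plus strand, at chr14:115043671-115044506 (GRCm38.p6, RefSeq). Of these, the hairpin of miR-92a lies inside the bounds that RefSeq gives for the host transcript Mir17hg, and the other 5 begin before its annotated start. The 3 hairpins of miR-106b-25 lie within 498 bases on the minus strand, at chr5:138165321-138165818, all inside Mcm7. miR-19b-3p and miR-92a-3p have a second, identical copy in a cluster on chromosome X named after miR-106a and miR-363, at chrX:52741991-52742013 and chrX:52741854-52741874 on the minus strand. Array signal for these 2 miRNAs cannot be assigned to either copy.

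The array reads each member with 2 probes of 12 to 21 bases, and some probes reach more than 1 miRNA. Each probe pairs up to the 3′ end of its miRNA. The longest, for miR-19a-3p, covers bases 3 to 23, and the shortest, for miR-17-5p, bases 12 to 23. The probes of miR-17-5p are the shortest of the set and are printed for that reason, as deposited and in lower case, 5′ to 3′.
miR-17-5p, 12-base probe: ctacctgcactg
miR-17-5p, 13-base probe: ctacctgcactgt
Both are fully complementary to miR-17-5p and to miR-106a-5p of the X-linked cluster, and the deposited annotation lists both miRNAs for them. The 2 miRNAs differ by 1 substitution, U10A (miR-17-5p first, counted from the 5′ end), which lies before the stretch that the probes cover.
miR-106a-5p, differing base in capitals: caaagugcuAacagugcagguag
The value given for miR-17-5p is therefore that of miR-17-5p and miR-106a-5p together, and miR-106a-5p had no probe of its own name. Within the stretch that these probes cover, miR-20a-5p differs from miR-17-5p by C12U alone. Whether miR-20a-5p adds to their signal was not tested. For the other 9 members, no other RefSeq mouse miRNA was fully complementary to a probe.

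With IL-6, none of the 10 members passed the test, and all but miR-17-3p differed by at most 0.12 on the log2 scale. Values are given as scaled intensity, the background-subtracted brightness of the spots averaged over both probes and divided by the 75th percentile of the probes detected on all arrays, or as its log2. They are compared between arrays for 1 miRNA at a time, since probes of different miRNAs bind differently. The comparison of IL-6 with control (limma, two-sided, Benjamini-Hochberg adjusted over all 299 tested miRNAs, threshold 0.05) called 1 miRNA in all, 0.334% of those tested, and that one is no member. At an unadjusted p under 0.05, limma gave 1 member, against 22.7% of all tested miRNAs. Of the members, 6 had estimates above 0 and 4 below. The median difference was 0.0077 over the members and -0.016 over all tested miRNAs. The median size of a difference, whichever its sign, was 0.0457 over the members and 0.137 over all tested miRNAs. These sets are unlike, since the 299 include miRNAs that were not detected on all arrays. Over the 264 miRNAs detected on all 6 arrays, the median difference was -0.044. In 1 member, miR-17-3p, both IL-6 values were lower than all 4 control values. In the other 9 the groups overlapped. Among all tested miRNAs both IL-6 arrays lay below all controls in 21.7% and above them in 13.0%, so 1 of 10 members is not above the share found among all tested miRNAs.

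**Figure D1:**
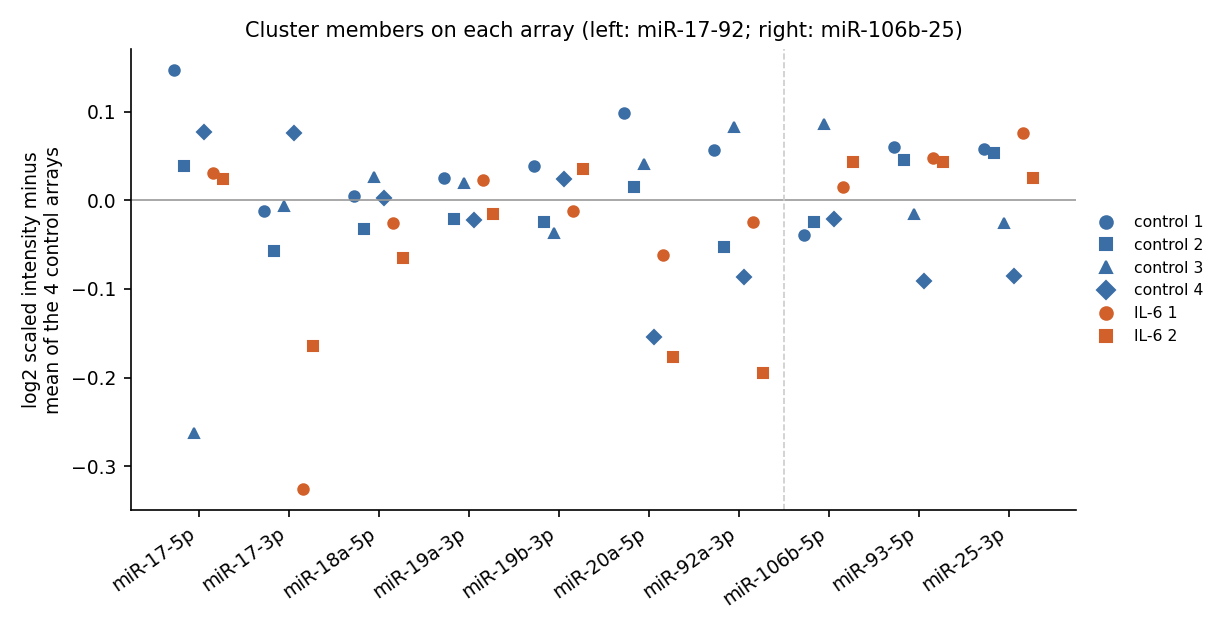
Log2 scaled intensity of each of the 10 members on each array, as the difference from the mean of the 4 control arrays (vertical axis); blue marks are controls, orange marks IL-6, and the marker shape gives the replicate. Both orange marks lie below all blue marks for miR-17-3p, and groups overlap for the other 9 members.

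Within the miR-17 seed group, the 4 guide strands best known for repressing Cdkn1a, differences ran from -0.12 to 0.05. miR-106b-5p read 218, 220, 237 and 220 scaled intensity units on controls 1 to 4, and 226 on IL-6 array 1 and 231 on IL-6 array 2. Both IL-6 arrays lay inside the control range, of which control 3 formed the upper end. Its difference was 0.03 ± 0.06 SE (limma adjusted p = 0.836). miR-93-5p read 161, 159, 153 and 145 in controls and 159 and 159 with IL-6, a difference of 0.05 ± 0.07 SE (limma adjusted p = 0.743). The IL-6 arrays again fell among the controls, near the higher ones. Between the 2 arrays of slide column 3, miR-106b-5p differed by -0.0713 and miR-93-5p by 0.0632. Slide column 4 gave 0.0648 for miR-106b-5p and 0.13 for miR-93-5p.

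miR-20a-5p, whose sequence differs from miR-17-5p by 2 substitutions (C1U and C12U), read 207, 195, 199 and 174 in controls and 185 and 171 with IL-6. IL-6 array 2 was the lowest of the 6, and IL-6 array 1 lay above control 4, so the groups overlapped. The difference was -0.12 ± 0.09 SE (limma adjusted p = 0.474, 95% interval -0.34 to 0.10), and became -0.0619 when IL-6 array 2 was left out, or -0.18 when IL-6 array 1 was. miR-17-5p, read together with miR-106a-5p, had 19.3, 17.9, 14.5 and 18.4 units in controls and 17.8 and 17.7 with IL-6. Control 3 was the lowest array, and both IL-6 arrays lay between it and control 2. Its difference was 0.03 ± 0.12 SE (limma adjusted p = 0.928), the widest error among the members. It was 0.29 within slide column 3, which holds control 3, and -0.0529 within slide column 4. With the total signal per miRNA from the scanner it was 0.41 (limma unadjusted p = 0.0177, adjusted p = 0.16), and it was 0.12 in the series' table of processed values.

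The miR-19 seed group, described as the part of miR-17-92 that drives its oncogenic activity, had SDs over all 6 arrays of 0.0324 for miR-19b-3p and 0.0233 for miR-19a-3p. miR-19b-3p read 420, 402, 399 and 416 in controls and 406 and 419 with IL-6, a difference of 0.0115 ± 0.0541 SE (limma adjusted p = 0.932). miR-19a-3p read 66.8, 64.7, 66.6 and 64.7 in controls and 66.8 and 65.0 with IL-6, a difference of 0.0039 ± 0.0616 SE (limma adjusted p = 0.992). Both IL-6 arrays lay within the control range for both miRNAs. The 95% intervals, -0.12 to 0.14 for miR-19b-3p and -0.15 to 0.16 for miR-19a-3p, covered values on both sides of 0.

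miR-92a-3p and miR-25-3p share a seed and come from the 2 clusters, where each is the last hairpin. Their estimates had opposite signs, and neither passed. miR-92a-3p, known for restraining vessel growth, read 119, 111, 121 and 108 in controls and 113 and 100 with IL-6, a difference of -0.11 ± 0.09 SE (limma adjusted p = 0.489). IL-6 array 2 was the lowest of all, and IL-6 array 1 lay among the controls. Leaving out IL-6 array 2 gave -0.0251, and leaving out IL-6 array 1 gave -0.20. miR-25-3p read 158, 157, 149 and 143 in controls and 160 and 154 with IL-6, a difference of 0.05 ± 0.07 SE (limma adjusted p = 0.724). IL-6 array 1 was the highest of the 6 and IL-6 array 2 lay inside the control range. The difference between the 2 responses was not tested.

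miR-18a-5p, the sole member of its seed here, read 34.9, 34.0, 35.4 and 34.8 in controls and 34.1 and 33.2 with IL-6. IL-6 array 2 was the lowest array, and IL-6 array 1 lay just above control 2. The difference was -0.0459 ± 0.0627 SE (limma adjusted p = 0.724), with a control SD of 0.0241, the smallest among the members.

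**Figure D2:**
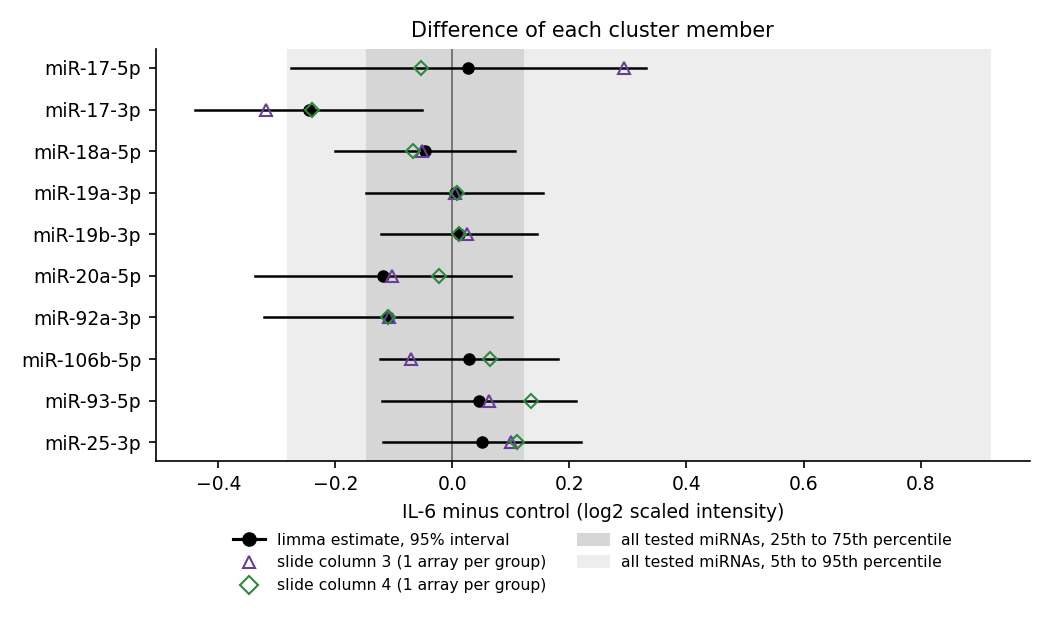
IL-6 minus control for each member on the log2 scale (horizontal axis), with limma's 95% interval; triangles and diamonds give the difference between the 2 arrays of slide column 3 and of slide column 4, and grey bands span the 25th to 75th and the 5th to 95th percentiles of all 299 tested miRNAs. The interval of miR-17-3p, -0.44 to -0.05, is the one that does not reach 0 before adjustment for multiple testing.

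miR-17-3p, the passenger arm of the miR-17 hairpin, which has been described as repressing mitochondrial antioxidant enzymes, had the largest difference among the members. It read 27.8, 26.9, 27.9 and 29.5 units in controls and 22.4 and 25 with IL-6. Both IL-6 arrays lay below all 4 controls, and IL-6 array 1 was the lowest. The log2 levels were 4.81 ± 0.0552 (SD, n = 4) in controls and 4.56 ± 0.11 (SD, n = 2) with IL-6. The difference of -0.245 ± 0.0789 SE, a ratio of 0.844, did not pass (unadjusted p = 0.0214 and adjusted p = 0.152 in limma's fit across all 299 miRNAs), and its rank by p-value was 42. Both probes gave the same picture, with differences of -0.27 for the 14-base and -0.23 for the 15-base probe and, for each, both IL-6 arrays below all controls.
miR-17-3p, 14-base probe: ctacaagtgccctc
miR-17-3p, 15-base probe: ctacaagtgccctca
The difference was -0.32 within slide column 3, -0.24 within slide column 4, and -0.28 with column as a block (limma adjusted p = 0.313). Without scaling between arrays it was 0.0487, beside a median of 0.27 over all tested miRNAs, so relative to that median it was -0.22, against -0.23 with the main scaling. Normexp is a model-based background correction that keeps all values above 0. Here it also added 50 units to all values, which makes log2 differences of dim miRNAs smaller by construction. With normexp the difference of miR-17-3p was -0.0989, and -0.0521 relative to the median, with 1 control and both IL-6 arrays at that setting's floor. Without IL-6 array 1 it was -0.16 (limma adjusted p = 0.48). Over all alternatives with a test, limma's adjusted p ran from 0.0532 to 0.908.

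Both arms of miR-17 come from 1 hairpin, but the value of miR-17-5p also holds any miR-106a-5p, from another hairpin. The ratio below is thus not purely that of the 2 arms. Within an array it does not depend on the scaling percentile. miR-17-3p minus miR-17-5p was 0.53, 0.59, 0.94 and 0.68 (log2) on controls 1 to 4, while IL-6 array 1 gave 0.33 and IL-6 array 2 gave 0.50. Both IL-6 values lay below all 4 controls. The control mean was 0.68 ± 0.18 (SD, n = 4) and the IL-6 mean 0.41 ± 0.12 (SD, n = 2). IL-6 minus control was thus -0.27 (exact permutation test, two-sided p = 0.133), where the 15 splits of 6 arrays allow no p below 0.0667. The separation rests on averaging both probes. With the brightest probe of each arm, both detected on all arrays, the ratios were 0.29, 0.31, 0.61 and 0.41 in controls and 0.13 and 0.34 with IL-6, so the groups overlapped (difference -0.17, exact permutation p = 0.333). With normexp and its added 50 units the groups overlapped too (difference -0.0688, exact permutation p = 0.333), and both arms were at the floor on 3 arrays. The difference was -0.19 without control 3 and -0.19 without IL-6 array 1. The value of miR-17-5p averages a detected probe and a 12-base probe that was well above background on no array. That probe read 7.57, 6.87, 4.05 and 7.07 units in controls and 8.36 and 8.12 with IL-6, and the detected 13-base probe 31.0, 28.9, 25 and 29.7 in controls and 27.3 and 27.3 with IL-6. Their differences had opposite signs, 0.25 and -0.0665, the first with control 3 set to the floor of 6.25 units. Control 3 was the lowest array on both probes, and both IL-6 arrays lay above all controls on the 12-base probe.

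**Figure D3:**
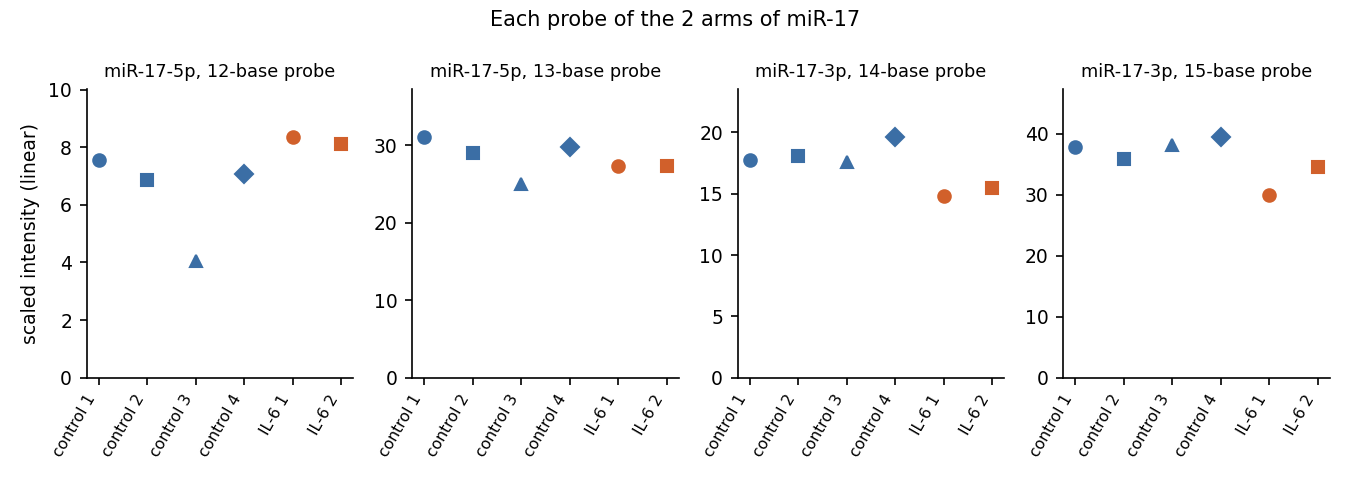
Scaled intensity (linear, from 0) of each probe of the 2 arms of miR-17 on every array; blue marks are controls and orange marks IL-6. The miR-17-3p probes read lower on both IL-6 arrays than on all controls, and control 3 is low on both miR-17-5p probes. The miR-17-5p probes also match miR-106a-5p.

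By cluster, the 3 miR-106b-25 members had estimates of 0.03, 0.05 and 0.05, all above 0, and the 7 miR-17-92 members a median of -0.0459, with 3 above 0 and 4 below. These signs depended on the scaling. Without scaling all 10 members were above 0 (median 0.30, while all tested miRNAs had a median of 0.27), and with scaling over all mouse probes all 10 were below 0 (median -0.10, all tested miRNAs -0.13). Relative to the median of all tested miRNAs, the members' median was 0.0237 with the main scaling and with scaling over all probes, and 0.0339 without scaling, changes that shift all miRNAs of an array alike. It was -0.0172 with normexp and -0.0033 without control 3. Relative to the median of the 264 miRNAs detected on all arrays, it was 0.0518. The difference between the clusters was not tested.

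**Figure D4:**
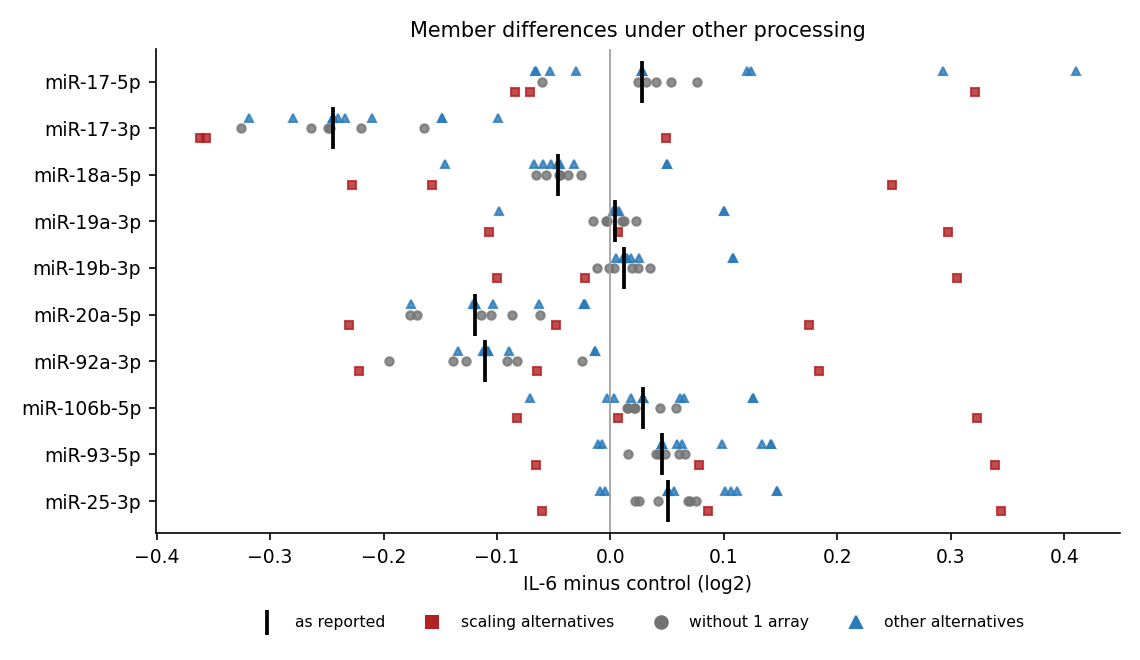
IL-6 minus control (log2, horizontal axis) of each member as reported (black bar) and under other scalings (red squares), without 1 array (grey circles) and under the other alternatives, single slide columns included (blue triangles). No scaling places all members above 0 and scaling over all mouse probes places all below 0.

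Some pairs differed less between arrays than their members did alone. miR-20b-5p, the X-linked relative of miR-20a-5p, differs from it by U1C and U10C (miR-20a-5p first). It had log2 levels of 6.61 ± 0.0929 (SD, n = 4) in controls and 6.48 ± 0.0813 (SD, n = 2) with IL-6, a difference of -0.13 ± 0.09 SE (limma adjusted p = 0.419). Its value beside miR-20a-5p matters here because their probes differ by 1 base, given in capitals.
miR-20a-5p, 19-base probe: ctacctgcactatAagcac
miR-20b-5p, 19-base probe: ctacctgcactatGagcac
Over the 6 arrays miR-20a-5p had an SD of 0.11 and miR-20b-5p of 0.10, while their log2 difference, array by array, had an SD of 0.0330. For miR-19a-3p and miR-19b-3p, which differ by U11C (miR-19a-3p first), the SD of the difference was 0.0427, above the SD of each alone.
miR-19a-3p, 20-base probe: tcagttttgcatAgatttgc
miR-19b-3p, 20-base probe: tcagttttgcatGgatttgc
A small SD was also found in a pair with different seeds. miR-93-5p and miR-25-3p, neighbours in Mcm7 chosen after their values were seen, had a difference with an SD of 0.0159, below the SDs of 0.0583 and 0.0615 of the single miRNAs. How much of the signal of 1 miRNA comes from a near-identical one was not tested.

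**Figure D5:**
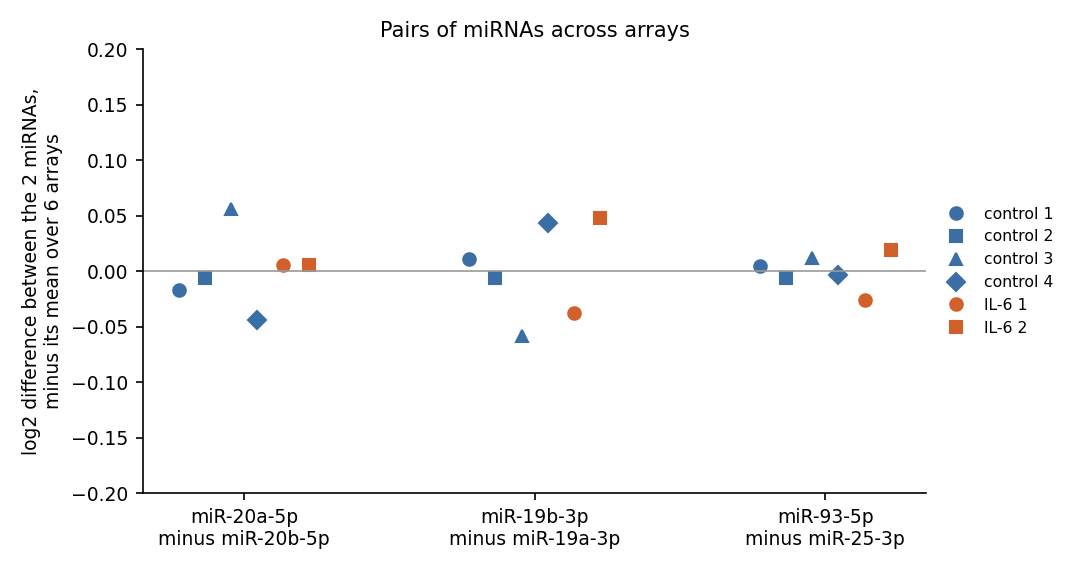
Log2 difference between 2 miRNAs on each array, minus its mean over the 6 arrays (vertical axis), for 3 pairs. The marks of miR-93-5p minus miR-25-3p lie closest to 0, and IL-6 arrays (orange) lie within the controls (blue) for miR-20a-5p minus miR-20b-5p.

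The other products of these and related hairpins were mostly not well above background. Of 21 related miRNAs listed from general knowledge, 20 were on the array, and 19 of them were well above background on no array. These include all 8 listed opposite strands, miR-18a-3p, miR-19a-5p, miR-19b-1-5p, miR-20a-3p, miR-92a-1-5p, miR-106b-3p, miR-93-3p and miR-25-5p, so that miR-17-3p is the sole opposite strand listed for the 2 clusters that was above background. The brightest probe of the 19, for miR-106b-3p, read between 8.52 and 12.8 units over the arrays without being well above background. Of the miR-106a-363 cluster, 9 listed products were on the array and miR-20b-5p alone was tested. miR-106a-3p, both arms of miR-18b, miR-20b-3p, miR-19b-2-5p, miR-92a-2-5p and both arms of miR-363 were not well above background. Among the miRNAs with the miR-25 and miR-92 seed, miR-32-5p, miR-92b-3p and miR-367-3p were likewise not well above background, which leaves miR-92a-3p and miR-25-3p as the 2 measured carriers of that seed.

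The control SD ran from 0.0241 to 0.18 (log2) over the members, with a median of 0.0633, beside 0.13 over all tested miRNAs. The 2 sets were not matched for brightness. The largest SD among the members was that of the dimmest, miR-17-5p (control mean 4.12). The 5 miRNAs outside the listed groups whose profiles over the 6 arrays were closest to the mean profile of the members, by root mean square distance of centred log2 values among 253 miRNAs detected on all arrays, were let-7a-1-3p, miR-500-3p, miR-676-3p, miR-140-3p and miR-29c-3p, at distances of 0.0278, 0.0386, 0.0407, 0.0430 and 0.0467. let-7a-1-3p sat at the intensity floor on all 6 arrays, so its value there is the floor itself, with no spread. The mean member profile itself spanned 0.0882 from its lowest to its highest array. The members did not all follow it closely. Their own distances ran from 0.0246 for miR-19a-3p to 0.1245 for miR-17-5p, with a median of 0.0581. The median over the 253 outside miRNAs was 0.1236.

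Across the whole array, the percentile used for scaling lay between 248 units on control 3 and 440 on IL-6 array 1, and between 268 and 313 miRNAs were detected per array. All 8 listed adipocyte-enriched miRNAs, such as miR-143-3p, miR-378a-3p and miR-103-3p, were detected on all arrays, and of 21 markers of 6 other cell types on the array, none was detected. No list covered fibroblasts or preadipocytes, so these detections do not tell how far the 3T3-L1 cells had differentiated. The summed scaled intensity of the adipocyte-enriched list lay between 5222 and 5948 in controls and between 4974 and 5106 with IL-6, and 7 of the 8 had differences below 0 (median -0.18, none past the threshold). Its part in the value of miR-17-3p was not tested. By the array names, all controls lay in row 1 of the slide and both IL-6 arrays in row 2, so row and treatment cannot be told apart.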

How the data were processed

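MiRNA was measured on 6 1-colour Agilent arrays, 4 control and 2 IL-6, grouped by title. Per the submitters' processing notes and the file headers, the scanner images were quantified by Agilent Feature Extraction, version 10.10.1.1. The deposited intensity values had a fitted background subtracted and can be negative. The authors' 0 or 1 flags, another kind of value, mark spots well above background, uneven or outlying. The series' value table holds linear intensity values equal to the scanner's total signal per probe (largest difference 0). No source used here gives a normalization between arrays.

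Uneven and outlying spots were left out and the rest averaged per probe. Detection of a probe required the well-above-background flag on a share of 0.5 or more of the spots kept. Arrays were scaled by the 75th percentile of the 502 probes detected on all arrays, and values multiplied by the mean percentile. Probes of a miRNA were averaged, values under the floor of 6.25 were set to it, and log2 was taken. miRNAs detected on all arrays of a group were tested with limma 3.58.1 in R 4.3.3 (lmFit, eBayes with trend), with the threshold at an adjusted p of 0.05. SE is limma's. No spot was saturated. The fit was tested on simulated data whose planted changes were larger than any member difference here. That test does not cover differences as small as those of the members. Array number limits the precision.

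Members, related lists and tests were chosen with earlier results of these data known. Named are all members, all tested related miRNAs and the 5 most alike profiles. Sequences and coordinates are RefSeq's (GRCm38.p6); 1017 of 1247 array miRNAs had one. The header names an older build, mm9, whose coordinates are not used.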

Additional observations from a re-analysis of the deposited data

Results flagged for a closer look

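miR-106b-5p stood apart on 1 control array. Control 3 read 237 scaled units against 218, 220 and 220 on the other controls. On the log2 scale its gap to the next array took a share of 0.855 of the control range (above Dixon's 95% critical value for 4 samples). Of the 11 control groups examined this way, 1 exceeded it. Chance does so in about 1 of 20 for each group, so 1 among 11 can arise by chance. Control 3 also had the lowest scaling percentile (248 units) and the lowest miR-17-5p value.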

How the results depend on the processing

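No member passed in any of the 19 fits beside the main one (limma adjusted p from 0.0532 for miR-17-3p with quantile normalization upwards). Signs of small differences did change. Without scaling they were 0.0487 for miR-17-3p, 0.25 for miR-18a-5p, 0.17 for miR-20a-5p and 0.18 for miR-92a-3p. With scaling over all mouse probes they were -0.0822 for miR-106b-5p, -0.0837 for miR-17-5p, -0.11 for miR-19a-3p, -0.0997 for miR-19b-3p, -0.0606 for miR-25-3p and -0.0657 for miR-93-5p. With quantile normalization miR-17-5p was -0.0712 and miR-19b-3p -0.0225. With normexp miR-17-5p was -0.0302, miR-19a-3p -0.0978, miR-25-3p -0.0089 and miR-93-5p -0.0106. miR-17-5p was -0.0665 with the brightest probe. miR-18a-5p was 0.0503 with the total signal per miRNA and 0.0503 with the series table. miR-106b-5p was -0.0033 with slide column as a block. The members' median, 0.0077 as reported, was 0.30 without scaling, -0.10 with all probes, -0.0352 with quantile normalization, -0.0640 with normexp and 0.10 with the total signal or the series table. Leaving out 1 array gave miR-17-5p from -0.0600 to 0.0763, miR-19a-3p from -0.0152 to 0.0229 and miR-19b-3p from -0.0117 to 0.0346. It gave miR-17-3p from -0.33 to -0.16, miR-18a-5p from -0.0656 to -0.0262, miR-20a-5p from -0.18 to -0.0619, miR-92a-3p from -0.20 to -0.0251, miR-106b-5p from 0.0146 to 0.0576, miR-93-5p from 0.0151 to 0.0656 and miR-25-3p from 0.0219 to 0.0758. miR-17-5p was 0.41 with the total signal per miRNA. With normexp, 3 members (miR-17-5p, miR-17-3p and miR-18a-5p) had arrays at the floor.

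Members with all IL-6 arrays outside the control range, 1 as reported, numbered 0 without scaling, 3 with quantile normalization and 1 to 3 without 1 control array. The share over all tested miRNAs is known for the main setting only, where it was 34.8%, so these counts have no share to be set against. miRNAs past the threshold, 1 as reported, numbered 34 without scaling, 2 with all probes and 14 with the brightest probe. They numbered 7 at the lower floor, 3 with the total signal and 2 with the series table. Without 1 control array they numbered 1 to 31 (31 without control 4). Normexp, the stricter filter, no filter, the slide column block and the replicate block gave 0. At an unadjusted p under 0.05, limma gave 30 of 299 tested miRNAs with normexp and 56 of 264 with the stricter filter. It gave 62 of 1247 with no filter, and 50 of 299 with each block.

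Replicate numbers occur in both groups but did not pair samples (correlation of deviations 0.0582 and -0.34). Arrays in the same slide column had correlations of 0.41 (column 3) and 0.51 (column 4), and the slide column block is given above. With the replicate block miR-17-5p was -0.0653, miR-25-3p -0.0051 and miR-93-5p -0.0077. The trend could not be fitted with no detection filter, so that setting, chosen after seeing the data, ran without it. The causes of these changes were not tested, beyond what each setting changes by construction.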
